A study of Mus musculus with 8 samples.

Results

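The genes described here encode 10 surface proteins of stimulatory or inhibitory contacts between dendritic cells and other immune cells: Cd80, Cd86, Icosl, Cd70, Cd40, Cd83, Cd274, Pdcd1lg2, Cd200 and Btla. They were grouped by function and not by a threshold on accessibility, and are 10 of 21627 protein-coding genes on the autosomes and X. For each gene, accessible regions inside it or within 50 kb of its ends were taken from 2 ATAC-seq samples. ATAC-seq maps open chromatin by letting a transposase insert sequencing adapters where DNA is exposed. A region was called shared where a peak of replicate 1 overlapped a peak of replicate 2 by at least 1 bp. The 10 windows held 80 distinct shared regions of 44365 in the genome, from 90 peaks of 50950 in replicate 1 and 100 peaks of 58319 in replicate 2.

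Both samples are mouse dendritic cells labelled CD8-positive and given no stimulus. The labels name a cell line in one field and spleen as the source in another, and no genotype, strain or age is stated. The labels do not tie the replicates to separate cultures, so their differences may be technical. In bulk samples like these, an open site in fewer cells and a less open site in every cell cannot be told apart. The series also has 6 chromatin immunoprecipitation samples of stimulated cells, for the transcription factors IRF3, IRF5 and IRF9, which were not analysed here. Accessibility is therefore described in resting cells only, and no comparison of conditions was made.

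T cells need a second signal beside the antigen receptor, and dendritic cells supply it through ligands of the B7 and tumour necrosis factor families. CD80 and CD86 bind CD28 to stimulate and CTLA-4 to restrain, whereas PD-L1 and PD-L2 bind the inhibitory receptor PD-1. Resting dendritic cells carry low amounts of many of these proteins and raise them when they mature, so the genes are commonly used as maturation markers. An accessible region can be a promoter or an enhancer, but accessibility alone does not show that a gene is transcribed.

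The RefSeq promoter table (build GRCm38.p6, the same chromosomes as mm10) held starts for 6 of the 10 genes: Cd80, Cd274, Pdcd1lg2, Icosl, Cd200 and Btla. Cd40, Cd70, Cd83 and Cd86 were not in it. A shared region reached within 1 kb of the tabled start in 4 of the 6, against 49.3% of the 17273 coding genes of the table, and lay in the 300-base window around the start in the same 4, against 45.4%. The 250 bases before the start of these 4 genes are shown 5′ to 3′ on the strand of the gene. Of the 6 tabled promoters, these 4 held part of a shared region in the unstimulated cells. The region of Cd274 was weak, with 11 and 15 summit reads in replicates 1 and 2, and that of Pdcd1lg2 had 11 and 13. Capitals mark the bases covered by a shared region. The Cd80 sequence is chr16:38458683-38458932, that of Icosl is chr10:78069118-78069367, that of Cd274 is chr19:29367188-29367437 and that of Pdcd1lg2 is chr19:29410669-29410918, all on the plus strand.
Cd80: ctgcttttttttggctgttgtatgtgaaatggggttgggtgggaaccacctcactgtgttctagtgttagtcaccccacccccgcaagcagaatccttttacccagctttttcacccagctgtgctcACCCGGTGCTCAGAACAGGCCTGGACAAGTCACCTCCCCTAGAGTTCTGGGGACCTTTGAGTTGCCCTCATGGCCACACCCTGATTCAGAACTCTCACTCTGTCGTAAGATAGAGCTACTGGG
Icosl: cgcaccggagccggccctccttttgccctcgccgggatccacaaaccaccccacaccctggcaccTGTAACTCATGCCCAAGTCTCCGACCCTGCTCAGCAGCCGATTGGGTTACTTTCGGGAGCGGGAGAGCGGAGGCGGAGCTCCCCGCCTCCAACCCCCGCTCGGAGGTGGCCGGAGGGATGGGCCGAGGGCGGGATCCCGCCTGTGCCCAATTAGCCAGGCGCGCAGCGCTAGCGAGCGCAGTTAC
Cd274: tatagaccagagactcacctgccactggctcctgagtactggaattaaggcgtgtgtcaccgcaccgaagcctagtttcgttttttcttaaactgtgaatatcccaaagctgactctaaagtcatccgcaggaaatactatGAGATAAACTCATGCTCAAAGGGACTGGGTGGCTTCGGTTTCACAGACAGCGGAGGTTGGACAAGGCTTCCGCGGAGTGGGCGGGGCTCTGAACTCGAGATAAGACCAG
Pdcd1lg2: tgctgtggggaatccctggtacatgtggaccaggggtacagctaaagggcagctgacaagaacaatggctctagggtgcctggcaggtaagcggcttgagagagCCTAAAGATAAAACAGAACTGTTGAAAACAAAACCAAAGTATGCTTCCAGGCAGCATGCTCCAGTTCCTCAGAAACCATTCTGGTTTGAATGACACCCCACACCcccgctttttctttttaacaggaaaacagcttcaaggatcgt
Shared regions covered 185 of the 250 bases before the Icosl start, 123 before Cd80, 109 before Cd274 and 104 before Pdcd1lg2. In Icosl, Cd80 and Cd274 the covered stretch ran up to the start, whereas in Pdcd1lg2 it ended short of it. Icosl also had the most G and C in these bases, 68.8%, against 52.8% in Cd80, 50.4% in Cd274 and 48.4% in Pdcd1lg2. The 250 bases before the starts of Cd200 and Btla held no base of a shared region.

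The 6 promoter windows of 300 bases were searched on both strands for short motifs, counted as letter matches only. Matches had to be exact, so a site that differs by a base was not counted. None held the interferon-stimulated response element (GAAA, 2 bases of any kind, GAAA), which 3.46% of all 32619 tabled windows held. None held a joint site of Ets and IRF factors (GGAA, 2 bases of any kind, GAAA; 2.73% of windows), or TTCNNNGAA, a STAT site (8.34%). The AP-1 site TGANTCA was found in Cd80, from -42 to -36 relative to the start, as TGATTCA and wholly inside the capitals (7.85% of windows). A kappa B site, the motif of NF-kB, was found in Icosl, from -111 to -102 relative to the start and inside the capitals, as GGGGAGCTCC on the opposite strand. Pdcd1lg2 held a kappa B match, GGGGAATCCC, from -244 to -235 relative to its start and outside its accessible stretch (8.51% of windows held this motif). GAGGAA, a core like that of PU.1 and other Ets factors, was found in Pdcd1lg2, inside its capitals, in Cd200 and at 2 places in Btla (28.2% of windows). TATAAA was found in Cd80 alone of the 6, past the start on the opposite strand (13.7% of windows).

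Every one of the 10 genes had a shared region within 50 kb, as 79.5% of coding genes did. Inside the gene there was one in 9 of 10, all but Cd70, against 57.5% of coding genes. Within 1 kb of an annotated end there was one in 7 of 10, all but Cd70, Cd200 and Btla, against 47.8%. The windows held 3 to 14 shared regions, with a median of 8.5, and the median of all coding genes was 5. Cd86 had the most, 14, followed by Pdcd1lg2 with 13, Cd274 with 11, Cd80 with 10, Icosl with 9, Cd70 with 8, Cd40 and Cd83 with 7 each, Btla with 6 and Cd200 with 3. The 2 lists differed by 0 to 3 peaks in a window. Neighbours in the order were 0 to 2 regions apart, apart from Btla and Cd200, which were 3 apart and whose own lists differed by 2 and 0 peaks. Per 100 kb of window, which allows for gene length, the median was 7.16 for these genes and 3.35 for all coding genes. Cd274 was the densest at 8.73 and Cd200 the sparsest at 2.36. The Cd274 count included regions that also lay at other genes. Without those at an end or in the promoter window of another gene it was 6 instead of 11. The regions left out include the one on the tabled Cd274 start, which lies within 1 kb of an end of the neighbouring gene Plgrkt. Cd274 was the nearest coding gene for 3 of the 11. The counts depended on the flank: with 20 kb on each side the median was 5, against 2 for all coding genes.

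**Figure D1:**
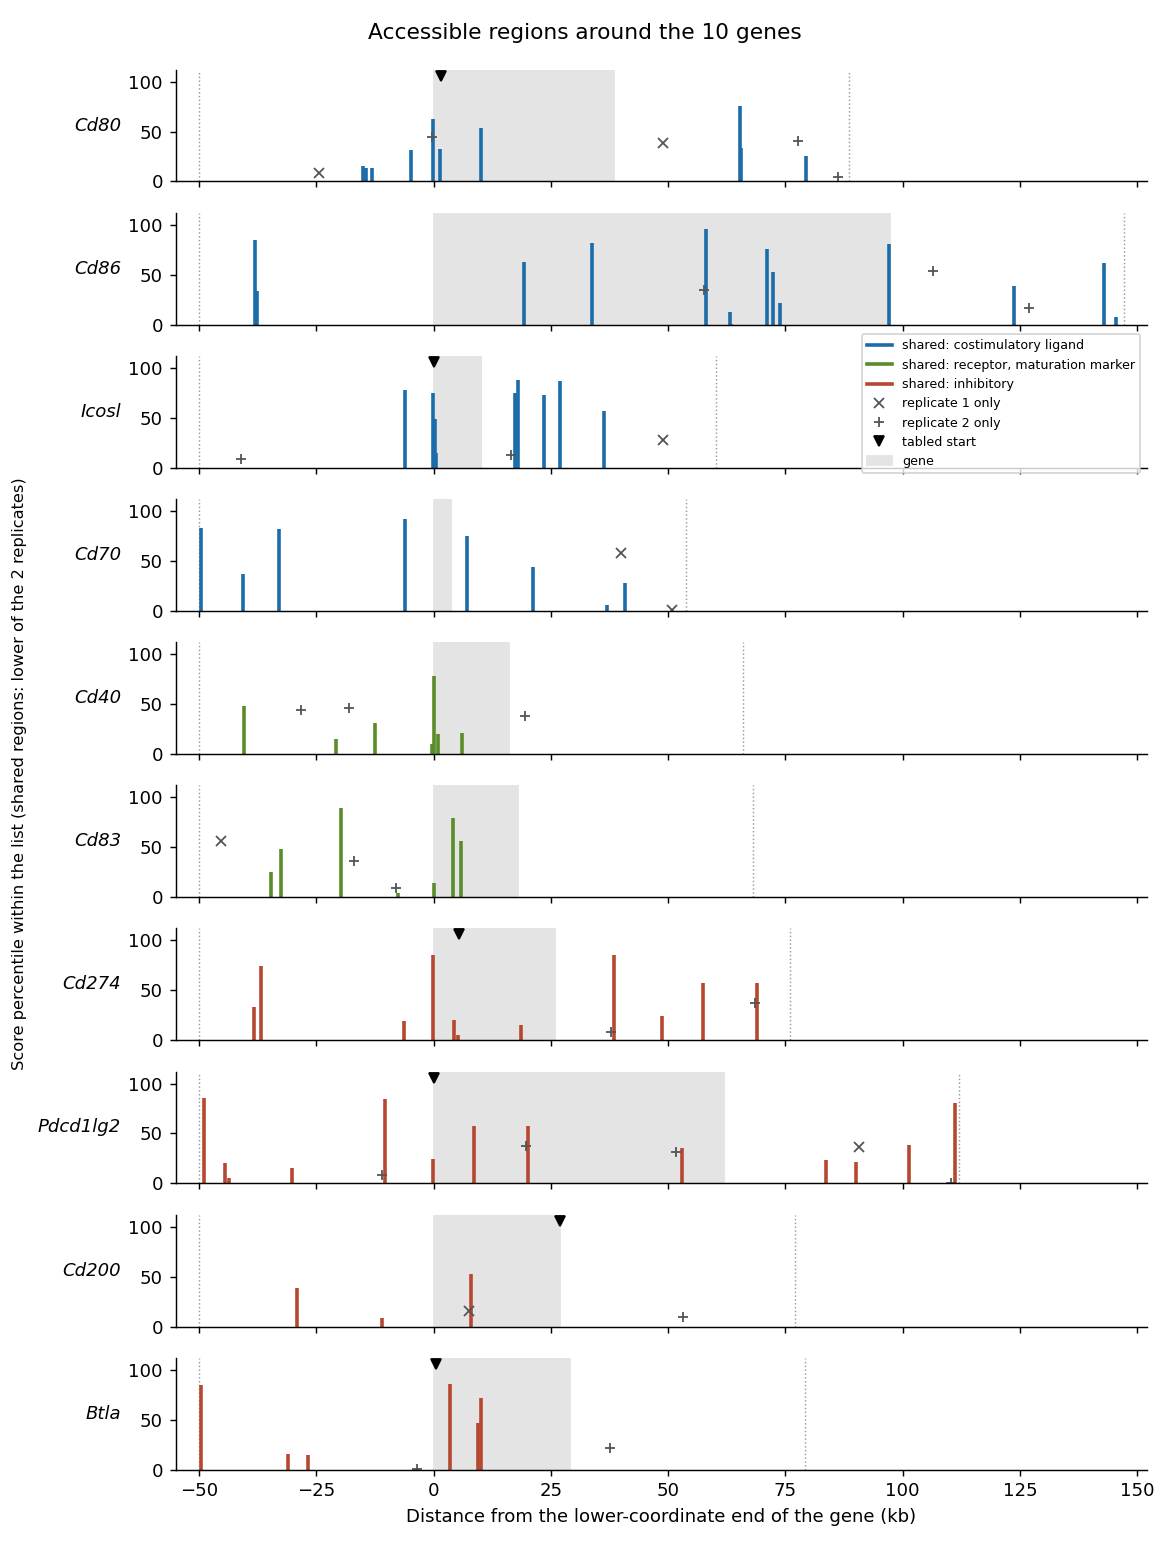
Shared regions around each gene, as bars at their distance in kb from the lower-coordinate end of the gene, with the score percentile within the list as height (the lower of the 2 replicates). Grey boxes are genes, dotted lines the ends of the windows, triangles tabled starts, and crosses and plus signs peaks of 1 replicate only. Cd86 holds 9 bars inside the gene and Cd70 none.

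**Figure D2:**
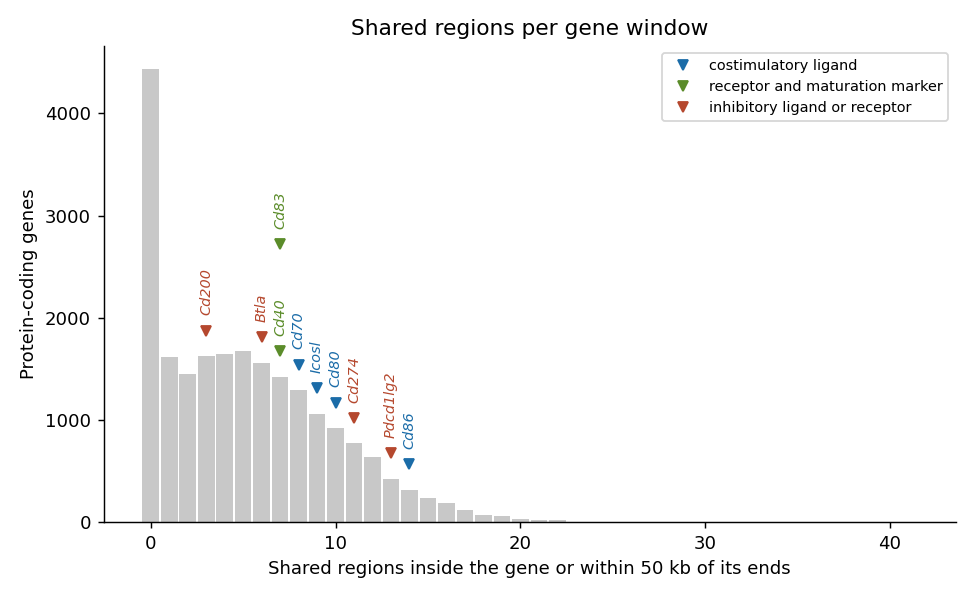
Number of shared regions per gene window (horizontal axis) over all 21627 coding genes (grey bars, number of genes). Triangles mark the 10 genes. Cd200, with 3, lies below the median of 5, and the other 9 lie above it, up to 14 for Cd86.

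The shared regions were close to the genome-wide median in fold enrichment and below it in score percentile and summit reads. Their median summit held 16 reads in replicate 1 and 22 in replicate 2, against 17 and 25 for all shared regions. Their median fold enrichment, which the authors' files give as a ratio of summit reads over local background, was 7.27 in replicate 1 and 7.57 in replicate 2, against 7.22 and 7.59 for all shared regions. They ranged from 4.08 to 13.3 in replicate 1 and from 4.34 to 13.0 in replicate 2. The median score percentile, meaning the rank of a peak within its own list, was 51.8 and 56.2, against 55.4 and 61.3 for all shared regions. Only 2 of the 80 stood at or above percentile 90 in both lists (2.50%), against 7.57% of all shared regions: one inside Cd86 and one beside Cd70. The median width was 196 bp, against 198 bp.

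Among the costimulatory ligands, Cd86 had the most shared regions inside the gene, 9 against 3 in Cd80 and Icosl and 0 in Cd70, in the longest gene of the 4. Per 100 kb of window it had the fewest of them, 7.10, against 7.22 for Cd80, 7.71 for Cd70 and 8.17 for Icosl. CD86 is the CD28 ligand that dendritic cells display early in maturation. The gene (chr16:36568956-36666158) spans 97203 bp. The strongest, chr16:36626867-36627119, had fold enrichments of 12.5 in replicate 1 and 13.0 in replicate 2, at percentiles of 96.0 and 97.3. Its summit held 29 reads (95% Poisson interval 19.4 to 41.6) in replicate 1 and 46 (33.7 to 61.4) in replicate 2. These intervals and those below cover counting error only. A region at the upper-coordinate end, chr16:36665770-36666154, had 11.2 and 11.4, with 20 reads (12.2 to 30.9) and 27 (17.8 to 39.3). Both sites were thus strong in both samples. The lower-coordinate end had no shared region within 1 kb. The site chr16:36602719-36602938 had 10.5 and 11.7, and chr16:36639825-36640100 had 7.82 and 10.3. The 2 sites inside the gene with the lowest percentiles in replicate 2 lay next to each other. Of these, chr16:36632334-36632460 stood at a percentile of 0.122 in replicate 1 and 13.2 in replicate 2. Its neighbour chr16:36632086-36632263 had 8.06 and 4.74, with fewer reads in the deeper replicate 2 (15, interval 8.40 to 24.7) than in replicate 1 (19, 11.4 to 29.7). Outside the gene, chr16:36530655-36530986 had 13.3 and 11.5 but lay inside Casr, the gene of the calcium-sensing receptor.

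Cd80, which encodes the other CD28 ligand, was open at 2 sites near its first annotated base. The gene (chr16:38457430-38495958) had a region across its lower-coordinate end, chr16:38457254-38457480, with fold enrichments of 7.82 and 6.46 and 26 reads (17.0 to 38.1) and 31 (21.1 to 44.0). The other, chr16:38458810-38459008, lay on the tabled start and had 5.66 and 7.19, with 16 reads (9.15 to 26.0) and 28 (18.6 to 40.5). By fold enrichment the first was the higher in replicate 1 and the second in replicate 2, and their read intervals overlapped in both. A further site inside the gene, chr16:38467486-38467708, was centred 8664 bp past the tabled start and had 7.90 and 11.5. The region ranked highest in the window by the lower of its 2 percentiles, chr16:38522547-38522859 with 8.56 and 12.0, lay at the end and in the promoter window of Timmdc1, the gene of a mitochondrial assembly factor. In replicate 1 the Cd80 end region ranked above it (77.2 against 75.3). Leaving aside regions at other genes' ends or promoters, 7 shared regions remained around Cd80.

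Icosl had accessible sites on its promoter and a group of sites past its end. ICOSL binds ICOS on activated T cells. The promoter region of the gene (chr10:78069368-78079525), chr10:78069183-78069382, had fold enrichments of 9.65 and 9.26, and its summit held 25 reads (16.2 to 36.9) and 28 (18.6 to 40.5). Further regions followed, chr10:78069650-78069821 with 6.63 and 8.75 and chr10:78069902-78070007 with 5.17 and 6.21, so the fold fell with distance from the start in both samples. Past the gene lay chr10:78086645-78086931 and chr10:78087139-78087429, the latter with 9.71 and 9.38. It ranked highest of the window by the lower percentile (93.4 in replicate 1 and 88.1 in replicate 2). Next came chr10:78092774-78092989 with 7.27 and 7.23, in the promoter window of Gm30039, and chr10:78096035-78096418 with 8.58 and 10.3, which ranked higher in replicate 2 (94.6). Before the start, chr10:78063247-78063451 had 10.0 and 10.7 and lay at an end of Dnmt3l, which encodes a cofactor of DNA methylation. The promoter of Icosl was the only tabled start of the 6 that kept a shared region when each list was limited to its better-scoring 50%.

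Cd70 was flanked by strong sites and had none of its own. CD70 is the ligand of CD27 on T cells, and the gene is short (chr17:57145997-57149777, 3781 bp). It had no shared region inside it, and the nearest began 3352 bp beyond its upper-coordinate end. That region, chr17:57153129-57153307, had fold enrichments of 11.3 and 10.1, with 21 reads (13.0 to 32.1) and 26 (17.0 to 38.1). On the other side, 5950 bp from the gene, chr17:57139802-57140047 had 12.5 and 12.1, with 28 reads (18.6 to 40.5) and 38 (26.9 to 52.2), above percentile 90 in both lists. The neighbouring genes of Cd70 on both sides code for other ligands of the same family. The region chr17:57105258-57105466, with 7.46 and 5.44, lay at an end of Tnfsf9, the gene of 4-1BBL. No shared region lay within 1 kb of an end of Tnfsf14, the gene of LIGHT. Of the 8 shared regions of the Cd70 window, Cd70 was the nearest coding gene for 3.

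Cd40 and Cd83 were both open at their lower-coordinate ends, to different extents. CD40 receives the CD40L signal of helper T cells and drives dendritic cell maturation. Cd40 (chr2:165055614-165071654) had 3 shared regions within 1 kb of that end. The middle one, chr2:165055538-165055716, crossed the end of the gene and was the strongest of the window, with fold enrichments of 9.24 and 9.61 and 24 reads (15.4 to 35.7) and 30 (20.2 to 42.8). Its neighbour outside the gene, chr2:165055103-165055337, had 4.88 in replicate 1 and 7.42 in replicate 2, and that inside, chr2:165056462-165056589, had 6.46 and 5.17. The site across the end was the highest of the 3 in both samples, and the other 2 differed in order.

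CD83 stabilises MHC class II and CD86 on the surface of mature dendritic cells. Cd83 (chr13:43785112-43803133) was the only gene of the 10 with no other coding gene in its window. Its end region, chr13:43785043-43785186, had fold enrichments of 4.27 and 4.65, at percentiles of 14.5 and 34.8, although its summit held 18 reads (10.7 to 28.4) and 26 (17.0 to 38.1). It no longer counted as shared when a reciprocal overlap of 50% was required. The sites ranked highest by score percentile lay elsewhere, chr13:43788990-43789514 inside the gene and chr13:43765244-43765586 outside it. The inside site, the widest of all 80 at 525 bp, stood at percentiles of 78.9 and 82.1. It had 34 reads (23.5 to 47.5) and 47 (34.5 to 62.5). Its fold enrichments of 6.39 and 6.74 were below those of chr13:43752510-43752713 in the same window (7.58 and 7.59). The outside site lay 19526 bp from the gene and had 11.4 and 11.1, with 31 reads (21.1 to 44.0) and 37 (26.1 to 51.0).

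The ligands of PD-1 are neighbours on chromosome 19, and 8 shared regions lay in both of their windows. The start of Cd274, which encodes PD-L1, was only weakly accessible. The region on the tabled start, chr19:29367329-29367449, had fold enrichments of 4.67 and 4.81, at percentiles of 5.64 and 13.0. Its summit held 11 reads (5.49 to 19.7) and 15 (8.40 to 24.7), where the fewest at any listed summit were 7 and 9. Another weak region, chr19:29366321-29366509, was centred at -1023 bp from the start and had 5.25 and 5.81, and both lay within 1 kb of an end of Plgrkt. The strong region at the outermost annotated end of Cd274 (chr19:29362107-29388095) was chr19:29361795-29362018, with 12.5 and 10.2 and 31 reads (21.1 to 44.0) and 35 (24.4 to 48.7). It lay in the promoter window of Plgrkt, a plasminogen receptor gene on the minus strand, and covered the Plgrkt start, which is at -5567 bp from the start of Cd274. Accessibility at that end cannot be told apart from that of the Plgrkt promoter, and without regions in promoter windows of other genes Cd274 had 0 at its ends and 6 of the 10 genes had one.

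Pdcd1lg2, which encodes PD-L2, had a start region below the middle of both lists. The gene is at chr19:29410919-29472927, and the promoter region chr19:29410773-29410876 had fold enrichments of 7.16 and 6.15, at percentiles of 38.4 and 24.1, with 11 reads (5.49 to 19.7) and 13 (6.92 to 22.2). It was lost when each list was limited to its better-scoring 50%. Between the genes of PD-L1 and PD-L2, chr19:29400566-29400766 had 10.6 and 11.2 in fold enrichment, with 22 reads (13.8 to 33.3) and 32 (21.9 to 45.2). It lay 12471 bp past Cd274 and 10153 bp from Pdcd1lg2. By the lower percentile, the Plgrkt start region ranked highest in the Pdcd1lg2 window (85.5) and this one next, but in replicate 2 the region at Ric1 described below ranked above both (87.5). Inside Pdcd1lg2, chr19:29419500-29419750 had 8.19 and 7.77 and chr19:29431082-29431237 had 7.91 and 8.27, and these were close to the median strength. At the far edge of the window, chr19:29521925-29522391 had 8.57 and 9.68 and lay at an end and in the promoter window of Ric1.

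Cd200 and Btla were not detectably open at either end or at the tabled start, with no shared region there within 1 kb. CD200 restrains myeloid cells that carry its receptor, and BTLA is an inhibitory receptor that binds HVEM and is found on dendritic cells of the CD8-positive type as well as on lymphocytes. Cd200 (chr16:45382111-45409060, minus strand) had 1 shared region inside, chr16:45389903-45390172, centred 19016 bp past its start. It had fold enrichments of 7.82 and 9.62, with 14 reads (7.65 to 23.5) and 27 (17.8 to 39.3). The other 2 shared regions of Cd200 had 7.16 and 8.34, and 5.37 and 6.15. Its site nearest to an end began 7792 bp from the lower-coordinate end, which is the end away from the start. Neither list held a peak within 1 kb of the start, so any opening there was below what this depth lists.

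Btla (chr16:45223705-45252895) had 3 shared regions inside the gene, all past the tabled start. The highest of them by score percentile, chr16:45227071-45227320 at 86.1 and 94.1, was centred 2858 bp past the start. It had fold enrichments of 8.96 and 10.2, with 28 reads (18.6 to 40.5) and 47 (34.5 to 62.5). The neighbouring sites chr16:45233144-45233353 and chr16:45233610-45233870 had 6.57 and 8.01, and 9.14 and 8.15. By fold enrichment the last of these was thus the highest in replicate 1. All 3 were thus present in both samples while the start was in neither list. At the edge of the window, chr16:45173938-45174217 had 10.6 and 12.8 and lay inside Atg3, an autophagy gene. Its gap of 49488 bp to Btla was the largest of any counted region, and the closest region left out by the 50 kb limit lay 50376 bp from Cd80.

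**Figure D3:**
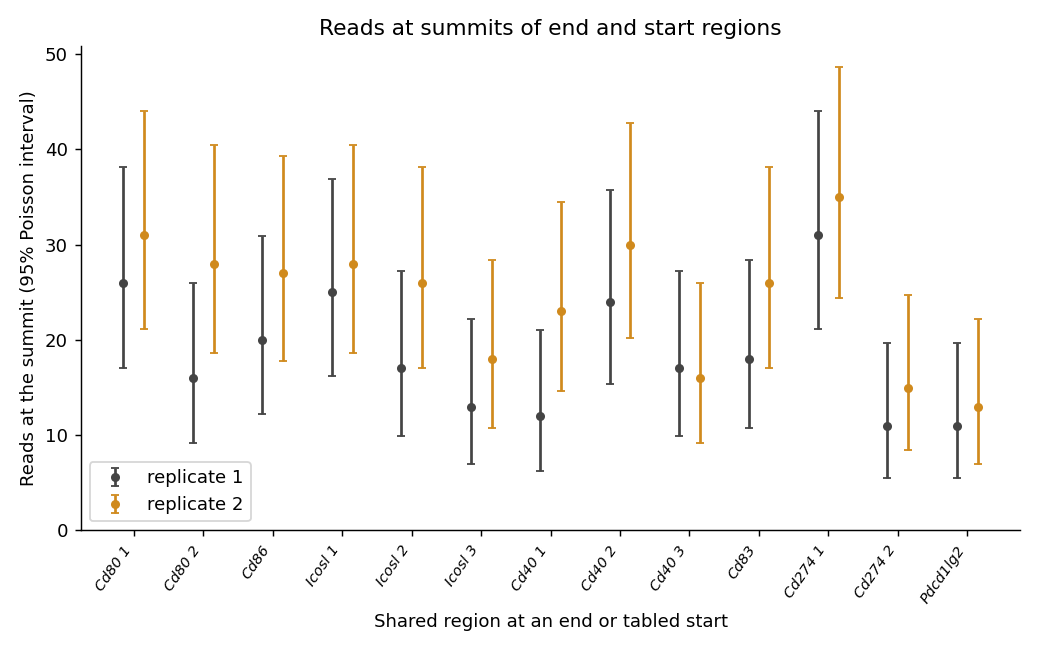
Reads at the summit (vertical axis) of each shared region within 1 kb of a gene end or on a tabled start, with exact 95% Poisson intervals, in replicate 1 and replicate 2. Regions of 1 gene are numbered by coordinate. The second Cd274 region, on its tabled start, has 11 and 15 reads, and the first, which covers the Plgrkt start, has 31 and 35.

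Sites at gene ends and the other sites were not ordered alike in both replicates. The 11 shared regions within 1 kb of an end of one of these genes had a median percentile of 48.5 in replicate 1 and 62.4 in replicate 2, and the 69 elsewhere had 52.6 and 54.5. Of the 80 regions 31 lay inside one of the genes and 49 outside all of them. Some belonged as much to other genes: 12 lay at the end of a coding gene outside the set, or in the promoter window of any gene outside it, coding or not, and 68 at neither. When each region was counted only for its nearest coding gene, 49 remained, with a median of 3.5 per gene, 9 of them for Cd86, 8 for Icosl and 7 for Cd83.

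The replicates agreed on these sites about as often as elsewhere. In replicate 1, 82 of 90 peaks in the windows overlapped a peak of replicate 2 (91.1%), against 90.0% of all its peaks. In replicate 2, 80 of 100 had a partner (80.0%), against 76.5%. Summits of shared regions lay a median of 18.5 bp apart, against 18.0 bp over all shared regions. Replicate 2 was deeper, with a background of 1.28 reads per position against 0.676, a ratio of 1.89. Its summits held more reads in 74 of the 80 regions and fewer in 6, with a median ratio of 1.38, against 1.44 for all shared regions. The ratio ran from 0.789 at the Cd86 site named above to 2.33 at chr16:38522928-38523080 beside Timmdc1, and all 3 ratios above 2 were in the Cd80 window.

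**Figure D4:**
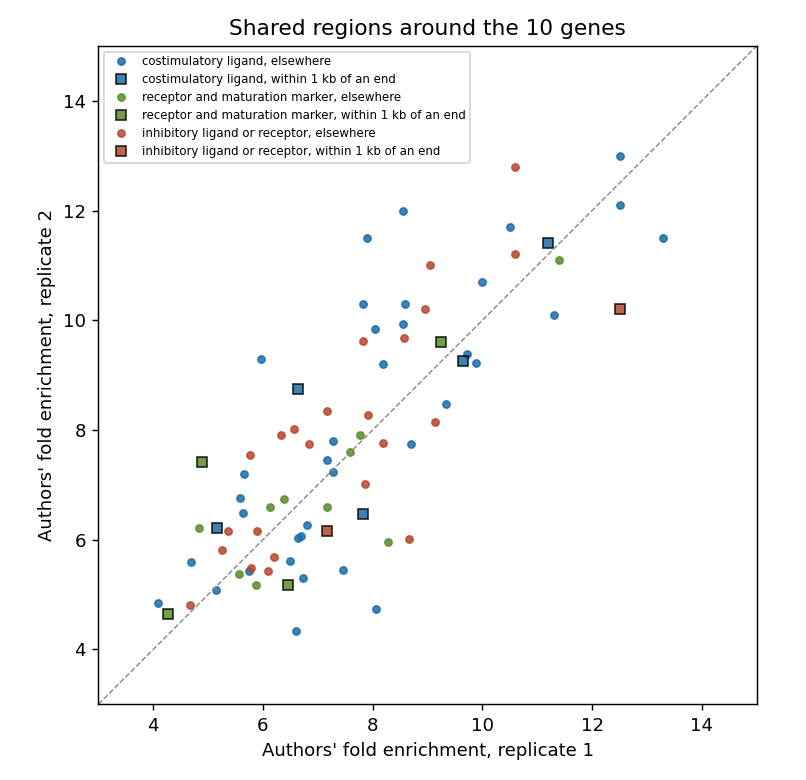
The authors' fold enrichment of the 80 shared regions in replicate 1 (horizontal) and replicate 2 (vertical), with squares for regions within 1 kb of an end of one of the 10 genes and circles for the others, coloured by the role of the gene. The dashed line marks equal values. Squares run from 4.27 to 12.5 in replicate 1, inside the 4.08 to 13.3 of all 80 regions.

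Peaks found in 1 replicate numbered 8 in replicate 1 and 20 in replicate 2. They were weak, with median percentiles of 32.1 and 26.3 and none above 57.9 in replicate 1 or 54.1 in replicate 2. The median summit had 10.5 reads in replicate 1 and 14.5 in replicate 2, while shared peaks of the windows had 16 and 22. One lay within 1 kb of an end of one of the 10 genes: chr16:38457078-38457171 beside Cd80, found in replicate 2 alone, where its fold enrichment was 5.36 from 26 reads (17.0 to 38.1). Inside genes, Cd86 had 1 such peak and Pdcd1lg2 had 2 in replicate 2, and Cd200 had 1 in replicate 1.

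Other ligands and receptors of dendritic cells for T cells showed a mixed pattern. Of 20 such genes, 12 had a shared region within 1 kb of an end (60.0%, against 47.8% of coding genes) and 18 had one within 50 kb (79.5% of coding genes did). The median was 6.5 per window, against 5. The 12 were Vsir, Tnfsf8, Tnfsf9, Tnfsf15, Tnfrsf14, Lgals9, Pvr, Nectin2, Cd48, Cd24a, Havcr2 and Icam1. Icam1, the gene of an adhesion ligand, had the most shared regions, 14, with fold enrichments at its end of 8.14 and 6.90. Cd48, Cd47 and Havcr2 followed with 10 each, and Havcr2, the gene of TIM-3, had 7.46 and 11.0 at its end. Tnfsf4, the gene of OX40L, and Ceacam1 had 0 in their windows. Tnfrsf14, which encodes HVEM, the partner of BTLA, had 8.63 and 8.01 at an end, whereas Btla had no shared end region.

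A list of 14 receptor genes held mostly receptors of T cells for ligands of this kind. It was not limited to partners of the ligands named here, and it included Cd200r1, for the CD200 receptor of myeloid cells. Of the 14, 6 had a shared region within 1 kb of an end (42.9%), near the 47.8% of all coding genes. The median of 5 per window equalled that of all coding genes. The 6 were Cd28, Ctla4, Icos, Cd27, Lag3 and Cd200r1. Lag3 had 13 shared regions in its window, Tigit 10, and Ctla4, Cd27 and Cd200r1 9 each. At Ctla4 the end region had fold enrichments of 9.32 and 9.95, and at Lag3 6.16 and 5.63. Pdcd1, which encodes PD-1, and Cd40lg had none at an end.

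Markers of the labelled cell type were largely but not wholly accessible. Of 13 genes of cross-presenting dendritic cells (cDC1), 12 had a shared region inside, against 57.5% of coding genes, the exception being Cd8a, which had none inside or at an end and 2 within 50 kb. At an end, 8 of the 13 had one (61.5%), against 47.8% of coding genes. On the same measure the counts were 5 of 5 for plasmacytoid markers, 4 of 6 for macrophage and monocyte markers (66.7%), 2 of 5 for B cells (40.0%) and 1 of 6 for T cells (16.7%), so the cDC1 share was below those of the plasmacytoid and the macrophage and monocyte markers. Inside the gene, 5 of 5 plasmacytoid markers and 2 of 5 B cell markers had a shared region. For macrophage and monocyte markers it was 3 of 6, as for T cell markers. Longer genes have more room for such a region, and the inside counts were not adjusted for length. The part of such other cells in the values above was not tested.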

How the data were processed

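The 2 ATAC-seq samples have a deposited peak list each, with 1 entry per summit. Per the submitters' processing notes, the build was mm10 and the tools included MACS2, HOMER 4.9.1, BWA 0.7.17, Trimmomatic and Picard 2.8.1, with no roles stated; the read shift, duplicate removal and threshold are not given in the sources used here. The fold enrichment deposited by the authors was read as a ratio, summit reads plus 1 over local background plus 1, from its values and the MACS2 layout of the files, since no header states it. The deposited −log10 p and −log10 q set the summit against that background, and the deposited score is −log10 q times 10. The lowest listed −log10 q was 3.00 in both lists.

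Summits of a peak were joined, keeping the highest. Summit reads were solved for from the deposited ratio and Poisson p-value; this returned the deposited p within 0.002 for 100% of summits. No listed summit had fewer than 7 reads in replicate 1 or 9 in replicate 2. These are minima and not a fixed limit, because the −log10 q depends on local background. In the Pdcd1lg2 window a replicate 2 peak with 13 reads had a −log10 q of only 3.14. Sites with more reads than these minima can therefore be unlisted, and a missing peak does not show closed chromatin. Gene ends, the outermost of all transcripts, came from RefSeq (GRCm38.p6); where that table gives no strand, ends are named by coordinate, and exons and introns were not assigned. Starts came from the RefSeq promoter table, so ends were counted for all 10 genes and starts for the 6 in it. No genome sequence was used here. Scripts used Python 3.11.15, numpy 2.4.6, scipy 1.17.1, pandas 2.3.3 and matplotlib 3.10.9 and were tested on simulated data.

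The genes, lists and windows were chosen with earlier results of these data known, so counts are set beside all coding genes without a test. All 10 genes are named, each with its end or start region and highest-scoring shared region, and from the other lists those with an end region and the 3 with the most regions, ties included; other genes and regions were named after their values were seen. Alternatives were the overlap, peak threshold, single replicates, window sizes, assignment to the nearest gene and the summit used.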

Additional observations from a re-analysis of the deposited data

How the results depend on the processing

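The 7 genes with an end region, 9 with an inside region and 10 with one within 50 kb stayed within 1.5 times of these counts under the alternatives run for each. End regions were found in 6 genes with a reciprocal overlap of 50%, and in 5, against 34.8% of coding genes, with the better-scoring 50% of each list. That limit left 36 distinct regions, a median of 3.5 per gene (2 for all coding genes), 1 tabled start of the 6 (36.5% of coding genes), a median lower percentile of 76.8 against 45.4, and 81.8% of replicate 1 peaks shared, and it moved most genes' own counts. A −log10 q of at least 5 put that percentile at 48.5. Both limits removed the lowest ranks of the full lists, so this percentile had to rise under them. With 20 kb flanks there were 52 regions, a median of 5 and 96.4% of replicate 1 peaks shared. Counting only regions nearest to the gene gave 49 and 3.5. One replicate alone gave 90 to 100 regions and medians of 10.0 to 10.5. Of 63 recomputed values of the whole set, 52 stayed within the tolerance used (1.5 times for a count or median count, the exact 95% binomial interval for a share, and 1 SD between replicates for the percentile), and of 170 counts of single genes 136 did. Some of these values could not move. A count of all 10 genes cannot change with a wider flank, and a gene without an end region gains none under a stricter setting. The tallies therefore overstate how far the values were put to the test. Alternatives that left out regions at other genes were chosen after seeing the data. No paired analysis was possible because the 2 ATAC-seq samples form 1 group.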
